A study of Homo sapiens with 30 samples.

Results

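The genes described are 37 lysosome genes, among them the 3 transcription factors TFEB, TFE3 and MITF that drive lysosome genes, out of 60656 genes in each of 2 deposited RNA sequencing tables. They were taken by gene symbol and followed by gene ID through 30 libraries of human diffuse large B cell lymphoma lines, in 10 groups of 3. Of these libraries, 24 hold RNA of 4 lines (HT, OCI-LY3, OCI-LY19 and SUDHL5) taken at 0 h without drug and at 24 h of 0.2 µM doxorubicin. Doxorubicin is an anthracycline that traps topoisomerase II on DNA, and a weak base that can collect in lysosomes. The remaining 6 hold RNA of the sensitive parent OCI-LY19S and of its derivative OCI-LY19R with acquired resistance. OCI-LY19R had been kept in 20 nM doxorubicin, which was removed 1 week before RNA was taken. The medium held 20% serum for OCI-LY3 and HT and 15% for OCI-LY19 and SUDHL5, so serum and line cannot be told apart between those pairs. Drug and time in culture change together, because every untreated library is from 0 h. OCI-LY19R is 1 derivative, and its resistance cannot be told apart from the rest of its history in culture.

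Lysosomes are the acidic organelles in which cells take apart proteins, glycans, lipids and nucleic acids. A proton pump, the V-ATPase, keeps them acidic, soluble hydrolases do the digestion, and membrane proteins shield the membrane and export the products. TFEB, TFE3 and MITF are related helix-loop-helix factors that bind the CLEAR element, which contains CACGTG, near many lysosome genes; when nutrients are plentiful the kinase complex mTORC1 keeps them in the cytosol, a control that mRNA levels do not show. In B cells, lysosomal and endosomal proteases also prepare antigen for MHC class II.

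The core of that element was looked for in the RefSeq promoter windows (GRCh38.p14), which run from 250 bases before to 50 bases after a transcription start. Windows were found for 27 of the 37 members. The letters CACGTG, which read the same on both strands, occurred in 9 of those 27 members (33.3%): ATP6V0D1, CD63, CLN3, CTSA, CTSD, GAA, LAMP1, MCOLN1 and NEU1. Among all genes with a window the share was 8.77%. The longer form TCACGTGA, which contains CACGTG, was found in 6 members and in 1.18% of genes. With the 250 bases before the start alone, the same count of 9 members held CACGTG against 7.73% of genes. The runs below are some of the places where a member's promoter holds CACGTG. Further copies in LAMP1 and MCOLN1, and those in CTSA, CD63 and CLN3, are not printed. Each is printed 5′ to 3′ on the gene's own strand, with CACGTG in capitals. The LAMP1 stretch (plus strand, chr13:113297035-113297114) holds 4 of the 6 copies in its window. The others printed are GAA (plus strand, chr17:80101493-80101522 and chr17:80101538-80101567), MCOLN1 (plus strand, chr19:7522571-7522600), CTSD (minus strand, chr11:1763957-1763986), NEU1 (minus strand, chr6:31862930-31862959) and ATP6V0D1 (minus strand, chr16:67481199-67481228).
LAMP1: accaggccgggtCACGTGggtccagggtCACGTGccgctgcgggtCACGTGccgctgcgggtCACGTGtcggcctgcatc
GAA, farther site: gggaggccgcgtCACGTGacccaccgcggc
GAA, nearer site: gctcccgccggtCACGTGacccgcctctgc
MCOLN1: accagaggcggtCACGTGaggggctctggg
CTSD: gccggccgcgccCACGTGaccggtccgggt
NEU1: atgctgcgtgatCACGTGggaggagatgag
ATP6V0D1: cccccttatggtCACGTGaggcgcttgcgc
No CACGTG was found in the windows of GRN, CTSH, CTSZ, TPP1, TFEB or TFE3, which says only that these letters are not in those windows.

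Levels are given as FPKM, fragments scaled for gene length and library size, as the authors deposited them, so levels of different genes can be compared per length. Changes are differences of log2(FPKM + 1) ± the standard error of the limma fit, which understate the fold of low genes. A gene passed, and is written as risen or fallen, at an adjusted p below 0.05 over all genes tested. Genes were tested where FPKM reached 1 in at least 3 libraries of a table. That left 17645 genes and 34 members in the 4 lines (MITF, CTSL and CLN3 were too low), and 12785 genes and 32 members in OCI-LY19S and OCI-LY19R (CTSH and SGSH were also too low there).

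Reads recovered from the FPKM values came to between 16067405 and 38337869 in all libraries but OCI-LY19S replicate 3 with 121769119. Replicates of SUDHL5 differed little beyond sampling noise (chi-square per degree of freedom 1.98 to 5.64, against 7.15 to 101.1 in the other groups). The labels call the replicates biological. The p-values of the 4 lines come from 1 fit that shares the spread of all 8 groups. All 6 B cell markers were at 1 FPKM or more in each of the 10 groups. Of 10 myeloid markers, LYZ and CSF1R exceeded 1 FPKM in OCI-LY19, OCI-LY19S and OCI-LY19R, while CD163 and MARCO stayed below 0.04 FPKM in all 30 libraries.

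With FPKM as deposited, doxorubicin was followed by higher levels of most of the 34 members tested in OCI-LY3, HT and OCI-LY19. Under median-of-ratios scaling or quantile normalization, given below, most members rose only in OCI-LY19. In SUDHL5, 16 of 34 members rose and 4 fell. In OCI-LY19, 29 of 34 members rose and 3 fell, with a median log2 change of 0.76, and 34.5% of all genes tested rose and 23.7% fell. In OCI-LY3, 24 rose and 2 fell, with a median of 0.47, where 40.4% of all genes rose and 14.3% fell. In HT, 20 rose and 1 fell, with a median of 0.35, where 22.9% of all genes rose and 9.41% fell. These HT counts do not use the pairing of its replicates, and with the replicate block, which does, TFEB also fell there (adjusted p = 0.0180). The median in SUDHL5 was 0.27, where 18.6% of all genes rose and 19.9% fell. In these bulk libraries, a change in the share of cells that express a gene and a change in RNA per cell cannot be told apart.

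The median change of all genes tested was 0.16 in OCI-LY3, 0.06 in HT, 0.08 in OCI-LY19 and 0.00 in SUDHL5. Median-of-ratios scaling moved it to 0.01 in OCI-LY3. The counts for members in OCI-LY3 were then 16 higher and 4 lower, where 26.8% of all genes rose and 25.5% fell. In that line changes are therefore also given relative to the median of all genes. The same scaling gave 17 higher and 4 lower in HT, 27 and 4 in OCI-LY19, and 16 and 3 in SUDHL5. The background under it was 16.4% higher and 13.0% lower in HT, 29.7% and 27.9% in OCI-LY19, and 20.4% and 19.0% in SUDHL5. With quantile normalization 16 were higher and 3 lower in OCI-LY3 (background 24.6% and 23.8%), 17 and 3 in HT (14.0% and 12.8%), 27 and 3 in OCI-LY19 (25.1% and 31.1%), and 16 and 4 in SUDHL5 (18.0% and 20.9%). Counted by libraries, 24 members had all treated values above all untreated ones in OCI-LY3 and 2 below (background 42.5% and 14.9%), 20 and 3 in HT (29.8% and 12.5%), 29 and 3 in OCI-LY19 (36.7% and 24.5%), and 21 and 8 in SUDHL5 (29.3% and 30.6%).

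Across the lines, 8 members rose in all 4: the factor TFE3, the proteases CTSB, CTSH, CTSZ and TPP1, the sphingomyelinase SMPD1, the pump subunit ATP6V1A, and GRN. For CTSZ the rise in OCI-LY3 turned to -0.053 under median-of-ratios scaling. Among all genes tested 2.98% rose in all 4. A further 9 members rose in 3 lines (11.4% of all genes), 13 in 2 (21.5%) and 4 in 1 (27.4%). The response differed among the lines for 34 of 34 members by the moderated F test, where 72.2% of all genes tested did. The matrix of changes shows that no column is uniform and that GRN in OCI-LY19 is the largest rise.

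**Figure D1:**
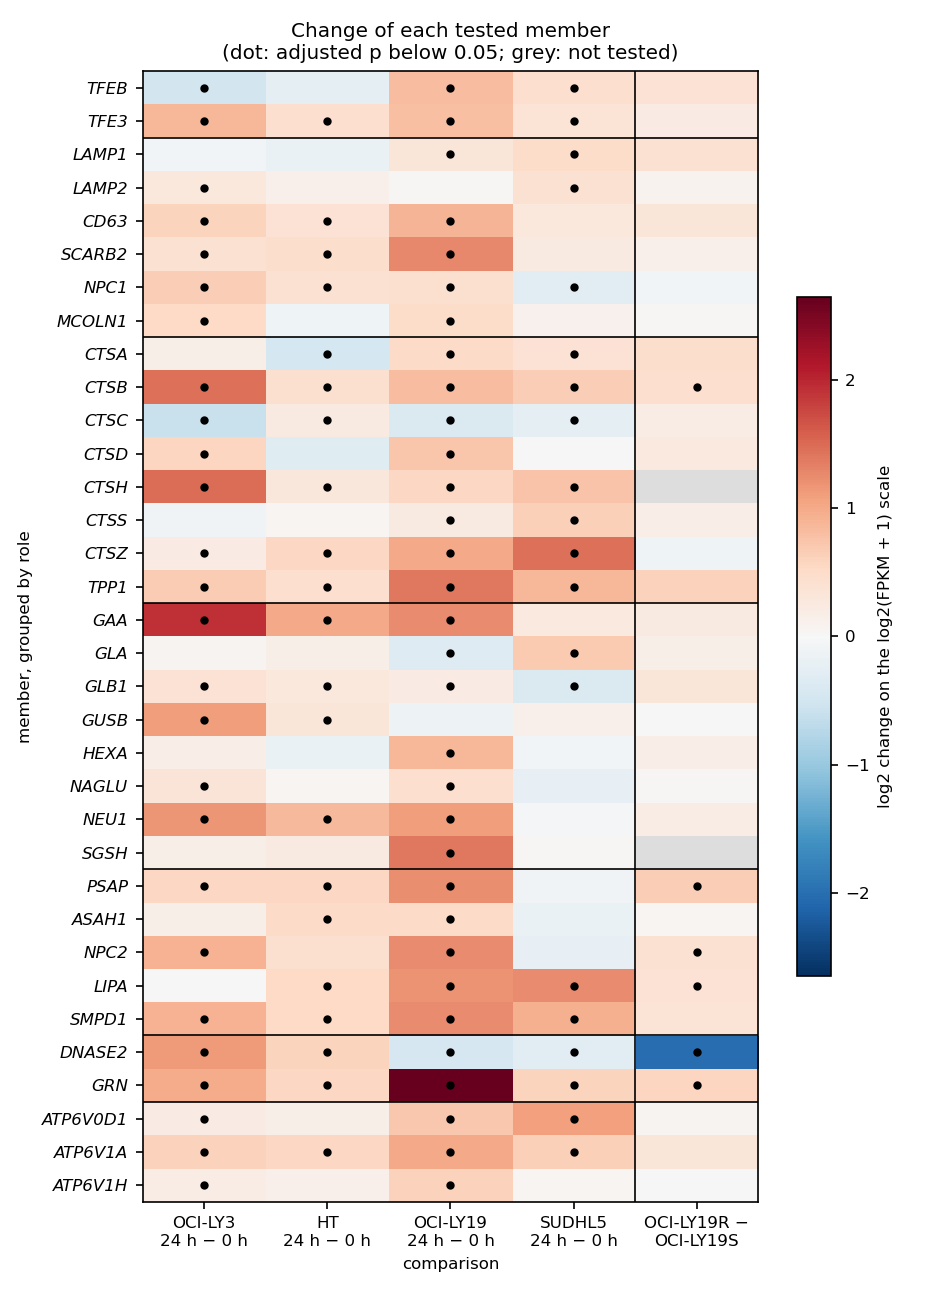
Log2 change (colour, on the log2(FPKM + 1) scale) of the 34 members tested in the 4 lines, in rows grouped by role and columns for the 5 comparisons. Dots mark adjusted p below 0.05 and grey cells were not tested. OCI-LY19 has the most red cells with dots (29), and OCI-LY19R against OCI-LY19S has dots for 6 members.

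Of the transcription factors, TFE3 rose in all 4 lines, TFEB moved in different directions, and MITF was barely present. TFEB (ENSG00000112561.18, chromosome 6, 41683978 to 41736259, minus strand, GRCh38) lay at 11.7, 14.9 and 15.1 FPKM untreated and 8.75, 10.5 and 9.82 FPKM treated in OCI-LY3, where it fell (-0.48 ± 0.11, adjusted p = 0.00126) without overlap. In HT it was at 17.5, 17.5 and 14.5 FPKM untreated and 12.7, 16.4 and 11.7 FPKM treated. Those HT groups overlap, and the change of -0.27 did not pass (adjusted p = 0.0748), although it passed as a fall with the replicate block (0.0180), median-of-ratios scaling (0.0184) and quantile normalization (0.0426). OCI-LY19 held the least TFEB, 2.54, 2.85 and 2.13 FPKM untreated and 4.78, 5.45 and 5.34 FPKM treated, and there it rose (0.82 ± 0.11, adjusted p = 3.31e-06). SUDHL5 was at 11.8, 12.4 and 11.5 FPKM untreated and 17.0, 16.4 and 16.5 FPKM treated, also a rise (0.45 ± 0.11, adjusted p = 0.00299). In both lines all 3 treated libraries were above all 3 untreated ones.

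The TFEB response differed between OCI-LY3 and OCI-LY19 (the former minus the latter was -1.30 ± 0.16, adjusted p = 1.56e-06), between OCI-LY3 and SUDHL5 (likewise -0.93 ± 0.16, adjusted p = 7.27e-05), and between HT and each of those (adjusted p = 1.47e-05 and 0.00131). OCI-LY3 and HT were not separated (adjusted p = 0.367), nor were OCI-LY19 and SUDHL5 (adjusted p = 0.0652). Without treatment the order of TFEB was HT (16.5 ± 1.72 FPKM, mean ± SD, n = 3), OCI-LY3 (13.9 ± 1.90), SUDHL5 (11.9 ± 0.427) and OCI-LY19 (2.50 ± 0.362). HT and OCI-LY3 were not separated by the test (adjusted p = 0.0751), nor were OCI-LY3 and SUDHL5 (adjusted p = 0.121), while OCI-LY19 lay below SUDHL5 (adjusted p = 8.12e-12). An annotated antisense gene lies within TFEB, and the strand setting of the counting is not given in the sources used here.

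TFE3 (ENSG00000068323.17, chromosome X, 49028726 to 49043486, minus strand) was at 4.10, 3.99 and 4.07 FPKM untreated and 8.86, 7.85 and 8.07 FPKM treated in OCI-LY3 (0.87 ± 0.09, adjusted p = 6.74e-08). It was at 7.71, 7.86 and 6.88 FPKM untreated and 10.9, 11.2 and 9.77 FPKM treated in HT (0.45 ± 0.09, adjusted p = 0.000477), and at 6.81, 6.58 and 4.79 FPKM untreated and 11.7, 11.2 and 10.8 FPKM treated in OCI-LY19 (0.80 ± 0.09, adjusted p = 1.56e-07). SUDHL5 was at 10.03, 10.7 and 9.91 FPKM untreated and 13.9, 13.2 and 13.2 FPKM treated (0.37 ± 0.09, adjusted p = 0.00195). In none of the 4 lines did the groups overlap. The untreated order differed from that of TFEB: SUDHL5 (10.2 ± 0.437), HT (7.49 ± 0.530), OCI-LY19 (6.06 ± 1.11) and OCI-LY3 (4.05 ± 0.0558), with each neighbouring pair past the threshold (adjusted p = 0.000344, 0.00817 and 7.76e-05). Per length, untreated OCI-LY19 held more TFE3 than TFEB in each of its 3 libraries, and untreated OCI-LY3, HT and SUDHL5 held more TFEB than TFE3.

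MITF (ENSG00000187098.16, chromosome 3, 69739435 to 69968337, plus strand) had between 20 and 58 reads per library in OCI-LY3 and at most 9 in any other library. A count of 0 allows up to 3 reads. OCI-LY3 was at 0.105, 0.167 and 0.135 FPKM untreated and 0.291, 0.275 and 0.246 FPKM treated, without overlap. MITF was too low for the filter, and the fit with no filter gave a rise of 0.16, adjusted p = 5.3e-07. It was listed at 0 in 17 of the 30 libraries.

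**Figure D2:**
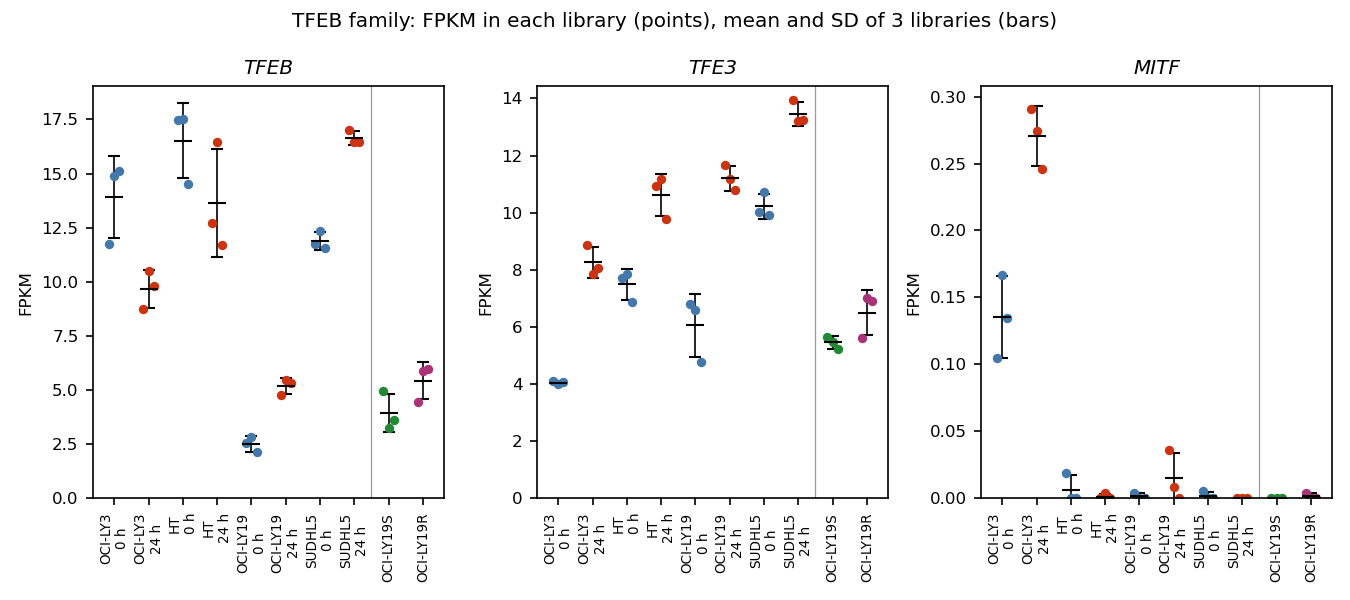
FPKM of TFEB, TFE3 and MITF (vertical axes, each starting at 0) in each library (points) of the 10 groups, with mean and SD of 3 libraries (bars). TFE3 is higher at 24 h in each of the 4 lines, TFEB is lower in OCI-LY3 and higher in OCI-LY19 and SUDHL5, and MITF stays below 0.3 FPKM.

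Among the 7 membrane proteins, 6 were tested, of which 5 rose in OCI-LY3, 3 in HT, 5 in OCI-LY19 and 2 in SUDHL5, where 1 fell. Their median changes were 0.47 in OCI-LY3, 0.26 in HT, 0.45 in OCI-LY19 and 0.26 in SUDHL5. Among all genes tested, in the same order of lines, 40.4%, 22.9%, 34.5% and 18.6% rose and 14.3%, 9.41%, 23.7% and 19.9% fell. LAMP1, the abundant glycoprotein that lines the membrane and whose promoter holds 6 CACGTG copies, rose in OCI-LY19 (0.32 ± 0.09, adjusted p = 0.00336) and SUDHL5 (0.49 ± 0.09, adjusted p = 0.000115). It did not pass in OCI-LY3 (-0.07, adjusted p = 0.512) or HT (-0.17, adjusted p = 0.142), though under median-of-ratios scaling it passed as a fall in both (-0.34, adjusted p = 0.00346 and -0.25, adjusted p = 0.0402). LAMP2, its relative that also serves in autophagy, rose in SUDHL5 (0.41) and in OCI-LY3 (0.29), the latter not under median-of-ratios scaling (0.03, adjusted p = 0.799). CD63, a tetraspanin, rose in OCI-LY3 (0.58), HT (0.38) and OCI-LY19 (0.90). Its call was lost under median-of-ratios scaling in OCI-LY3 and HT, and in HT also in 4 of 6 fits that each left out 1 library.

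SCARB2, a membrane receptor that carries a hydrolase to lysosomes, was at 1.86, 1.47 and 1.72 FPKM untreated and 5.34, 4.41 and 6.74 FPKM treated in OCI-LY19 (1.26 ± 0.10, adjusted p = 3.52e-09). All treated libraries there were above all untreated ones. It also rose in OCI-LY3 from a level below 0.2 FPKM (0.41) and in HT (0.47), neither past the threshold under quantile normalization (0.20, adjusted p = 0.164 and 0.29, adjusted p = 0.067). MCOLN1, the calcium channel of the lysosome membrane, rose in OCI-LY3 (0.52 ± 0.10, adjusted p = 0.000237) and OCI-LY19 (0.49 ± 0.10, adjusted p = 0.000439). Both calls were lost under quantile normalization (0.17, adjusted p = 0.179 and 0.22, adjusted p = 0.0675). NPC1, which exports cholesterol together with NPC2, rose in OCI-LY3 (0.64), HT (0.39) and OCI-LY19 (0.42) and fell in SUDHL5 (-0.27 ± 0.07, adjusted p = 0.00424). SUDHL5 had 3.20, 2.74 and 2.90 FPKM untreated and 2.19, 2.25 and 2.35 FPKM treated, without overlap. CLN3, a membrane protein of uncertain function, was between 0.122 and 0.524 FPKM in every library. Another annotated gene covers 83.8% of CLN3 on its own strand, so its level is uncertain.

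The proteases moved in both directions in each of the 4 lines. Of 9 members 8 were tested, of which 5 rose and 1 fell in OCI-LY3 and in HT, 7 rose and 1 fell in OCI-LY19, and 6 rose and 1 fell in SUDHL5. The median changes were 0.39 in OCI-LY3, 0.27 in HT, 0.64 in OCI-LY19 and 0.64 in SUDHL5. Over all genes tested, in the same order of lines, 40.4%, 22.9%, 34.5% and 18.6% rose and 14.3%, 9.41%, 23.7% and 19.9% fell. CTSB, a cysteine protease, was at 2.03, 2.31 and 2.16 FPKM untreated and 7.65, 6.99 and 8.70 FPKM treated in OCI-LY3 (1.47 ± 0.07, adjusted p = 2.94e-11), which is 1.31 above the median of all genes. Its means there were 3.59-fold apart. The rises in HT (0.43), OCI-LY19 (0.82) and SUDHL5 (0.66) were smaller.

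CTSH (ENSG00000103811.17, chromosome 15, 78921058 to 78949574, minus strand), an aminopeptidase, was at 1.52, 1.91 and 1.76 FPKM untreated and 7.17, 5.97 and 6.66 FPKM treated in OCI-LY3 (1.48 ± 0.08, adjusted p = 3.99e-11, or 1.32 above the median of all genes). In SUDHL5 it was at 62.2, 60.2 and 59.1 FPKM untreated and 106, 97.9 and 105 FPKM treated (0.76 ± 0.08, adjusted p = 1.86e-07). OCI-LY19 stayed below 1 FPKM throughout, at 0.265, 0.172 and 0.208 FPKM untreated and 0.791, 0.754 and 0.771 FPKM treated, where the rise passed (0.54 ± 0.08, adjusted p = 4.77e-06). Treated and untreated libraries did not overlap in any of these 3 lines. The response in OCI-LY3 exceeded that in HT (1.17 ± 0.11, adjusted p = 5.84e-07), OCI-LY19 (0.93 ± 0.11, adjusted p = 8.2e-07) and SUDHL5 (0.72 ± 0.11, adjusted p = 1.82e-05).

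CTSZ (ENSG00000101160.14, chromosome 20, 58995185 to 59007247, minus strand), a carboxypeptidase, had its strongest rise in SUDHL5, from 50.8, 47.8 and 49.4 to 133, 142 and 136 FPKM (1.46 ± 0.09, adjusted p = 1.33e-10). In HT it was at 30.9, 28.5 and 29.1 FPKM untreated and 46.2, 48.5 and 37.3 FPKM treated (0.55 ± 0.09, adjusted p = 8.74e-05), again without overlap. OCI-LY19 rose from 1.75, 1.66 and 1.43 to 4.58, 3.75 and 4.25 FPKM (0.99 ± 0.09, adjusted p = 1.05e-08). In OCI-LY3 the groups overlap and the rise (0.22) was lost in 4 of 6 fits without 1 library.

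TPP1, a tripeptidyl peptidase, was at 9.54, 10.7 and 8.55 FPKM untreated and 30.6, 22.2 and 28.9 FPKM treated in OCI-LY19 (1.40 ± 0.10, adjusted p = 1.08e-09) and at 19.8, 17.8 and 20.0 FPKM untreated and 34.9, 34.8 and 39.5 FPKM treated in SUDHL5 (0.89 ± 0.10, adjusted p = 1.31e-06). It rose in OCI-LY3 (0.67) and HT (0.44) as well. Its annotated span is 57.0% covered by another gene on the same strand, and how reads in shared stretches were assigned is not given in the sources used here. CTSD, the main aspartic protease, is covered for 94.8%. It rose in OCI-LY19 (0.73) and in OCI-LY3 (0.56), the latter not under median-of-ratios scaling (0.34, adjusted p = 0.104). CTSS, the protease that trims the MHC class II invariant chain, rose in SUDHL5 (0.63 ± 0.07, adjusted p = 3.32e-07) and in OCI-LY19 (0.24), the latter not under median-of-ratios scaling (0.14, adjusted p = 0.117). It was at -0.09 in OCI-LY3 and 0.05 in HT, neither past the threshold as deposited, and under median-of-ratios scaling it passed as a fall in OCI-LY3 (-0.35, adjusted p = 0.000477). CTSL, a further cysteine protease, was listed at 0 in 25 of 30 libraries and had at most 6 reads in the others.

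CTSC, the dipeptidyl peptidase that activates granule proteases, fell in 3 lines. It was at 8.56, 8.50 and 8.02 FPKM untreated and 4.86, 5.86 and 5.02 FPKM treated in OCI-LY3 (-0.59 ± 0.08, adjusted p = 4.84e-06) and at 11.5, 11.4 and 11.6 FPKM untreated and 8.70, 9.24 and 7.89 FPKM treated in OCI-LY19 (-0.38 ± 0.08, adjusted p = 0.000441). No treated library reached an untreated one in either line. SUDHL5 also fell (-0.25 ± 0.08, adjusted p = 0.0176), a call lost without untreated replicate 3 or treated replicate 1 or 2 (adjusted p = 0.0546 to 0.0622). In HT it rose (0.23, adjusted p = 0.0336), with overlapping groups and a call lost in 4 of 6 fits without 1 library. CTSA, the carboxypeptidase that stabilizes NEU1 and GLB1, fell in HT, at 12.5, 11.5 and 8.97 FPKM untreated and 8.12, 8.71 and 6.38 FPKM treated (-0.46 ± 0.12, adjusted p = 0.00567). It rose in OCI-LY19 (0.52) and SUDHL5 (0.39).

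Among the 8 glycosidases and sulfatases, 5 rose in OCI-LY3, 4 in HT, 6 in OCI-LY19 and 1 in SUDHL5, and 1 fell in OCI-LY19 and 1 in SUDHL5. Their median changes were 0.36 in OCI-LY3, 0.26 in HT, 0.66 in OCI-LY19 and 0.00 in SUDHL5. Of all genes tested, in the same order of lines, 40.4%, 22.9%, 34.5% and 18.6% rose and 14.3%, 9.41%, 23.7% and 19.9% fell. The share of these members that rose in SUDHL5 was not above that of all genes. GAA (ENSG00000171298.13, chromosome 17, 80101556 to 80119879, plus strand), the acid glucosidase that degrades glycogen, had the largest member change in OCI-LY3, 0.730, 0.593 and 0.740 FPKM untreated and 7.74, 3.92 and 5.33 FPKM treated (1.94 ± 0.14, adjusted p = 1.07e-09, or 1.78 above the median of all genes). The means were 8.24-fold apart. In HT it was at 2.79, 2.95 and 2.07 FPKM untreated and 6.30, 6.25 and 6.0 FPKM treated (1.0 ± 0.14, adjusted p = 2.22e-05), and in OCI-LY19 at 9.38, 10.9 and 8.77 FPKM untreated and 24.3, 24.9 and 23.5 FPKM treated (1.25 ± 0.14, adjusted p = 2.25e-07). Treated and untreated libraries were apart in all 3. SUDHL5 had 2.74, 2.86 and 3.05 FPKM untreated and 3.49, 3.84 and 3.53 FPKM treated, which did not overlap either, but the change did not pass (0.25 ± 0.14, adjusted p = 0.167). In the fit of SUDHL5 alone it passed as a rise (0.25, adjusted p = 0.00543). The OCI-LY3 response exceeded that of SUDHL5 (1.69 ± 0.19, adjusted p = 8.04e-07).

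NEU1, the lysosomal sialidase, was at 1.49, 2.04 and 1.70 FPKM untreated and 4.67, 5.01 and 5.71 FPKM treated in OCI-LY3 (1.16 ± 0.11, adjusted p = 4.99e-08, or 1.0 above the median of all genes). It rose as well in HT (0.86) and OCI-LY19 (1.10), and was at -0.03 in SUDHL5 (adjusted p = 0.874). GUSB, the glucuronidase, rose in OCI-LY3 (1.10 ± 0.07, adjusted p = 1.83e-10) and HT (0.32). In OCI-LY19 it changed by -0.13 without passing (adjusted p = 0.109), and under median-of-ratios scaling it passed as a fall (-0.22, adjusted p = 0.00967). SGSH, a heparan sulfatase, rose in OCI-LY19 from 0.724, 0.890 and 0.524 to 4.13, 2.67 and 3.84 FPKM (1.40 ± 0.11, adjusted p = 2.93e-09). In OCI-LY3, with 5 to 22 recovered reads before and 27 to 44 after treatment, it did not pass (0.16, adjusted p = 0.252) but did with a pseudocount of 0.1 (0.80, adjusted p = 0.00377) and with limma voom on the reads (1.57, adjusted p = 0.0189). HEXA, a subunit of the hexosaminidase that breaks down GM2 ganglioside, rose in OCI-LY19 (0.87), and NAGLU, which acts on heparan sulfate, in OCI-LY19 (0.45) and OCI-LY3 (0.35, lost under median-of-ratios scaling with 0.12, adjusted p = 0.364). In HT HEXA passed as a fall under that scaling (-0.22, adjusted p = 0.0426). Another annotated gene on the same strand covers 98.6% of HEXA and 95.9% of NAGLU, so their levels are uncertain.

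GLA, the galactosidase that acts on globotriaosylceramide, and GLB1, the acid beta-galactosidase, each fell in 1 of the lines where the other rose. GLA fell in OCI-LY19, at 6.06, 6.23 and 5.74 FPKM untreated and 4.02, 5.01 and 4.72 FPKM treated (-0.33 ± 0.08, adjusted p = 0.0014), and rose in SUDHL5, at 6.96, 7.30 and 7.91 FPKM untreated and 12.8, 11.6 and 13.1 FPKM treated (0.69 ± 0.08, adjusted p = 1.12e-06). The groups did not overlap in either line. GLB1 fell in SUDHL5, at 7.84, 8.14 and 8.90 FPKM untreated and 5.99, 5.49 and 6.94 FPKM treated (-0.38 ± 0.09, adjusted p = 0.0014). It rose in OCI-LY3 (0.37), HT (0.29) and OCI-LY19 (0.21), but under median-of-ratios scaling none of these 3 rises passed.

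All 5 lipid enzymes, carriers and activators rose in OCI-LY19, 4 in HT, 3 in OCI-LY3 and 2 in SUDHL5. Their median changes were 0.55 in OCI-LY3, 0.52 in HT, 1.22 in OCI-LY19 and -0.10 in SUDHL5. The shares of all genes tested that rose were 40.4%, 22.9%, 34.5% and 18.6% in the same order of lines. PSAP, the precursor of the saposins that present sphingolipids to their hydrolases, was at 185, 192 and 185 FPKM untreated and 256, 271 and 302 FPKM treated in HT (0.56 ± 0.10, adjusted p = 0.000378). In OCI-LY19 it was at 47.2, 36.2 and 38.7 FPKM untreated and 111, 83.5 and 94.1 FPKM treated (1.22 ± 0.10, adjusted p = 5.93e-09). SUDHL5, with 280.5, 265 and 271 FPKM untreated and 251, 255 and 254 FPKM treated, held the most PSAP of the untreated lines and did not pass (-0.10, adjusted p = 0.488). These groups did not overlap, and PSAP passed as a fall in the fit of SUDHL5 alone (-0.10, adjusted p = 0.0171).

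LIPA, the acid lipase, was at 4.54, 4.17 and 4.54 FPKM untreated and 11.8, 11.5 and 12.5 FPKM treated in SUDHL5 (1.25 ± 0.10, adjusted p = 1.62e-08). It rose in OCI-LY19 (1.18) and HT (0.52), and in OCI-LY3, with a change of 0.00, treated and untreated libraries overlapped (adjusted p = 1). The annotated span of LIPA overlaps several IFIT genes, which interferon induces, on the opposite strand. SMPD1, the acid sphingomyelinase, was at 4.49, 4.30 and 4.50 FPKM untreated and 9.56, 9.71 and 9.01 FPKM treated in SUDHL5 (0.94 ± 0.09, adjusted p = 9.33e-08), and rose in OCI-LY3 (0.92), HT (0.52) and OCI-LY19 (1.25). NPC2, the soluble cholesterol carrier, rose in OCI-LY3 (0.92) and OCI-LY19 (1.24). ASAH1, the acid ceramidase, rose in HT (0.51) and OCI-LY19 (0.51). In SUDHL5 it did not pass (-0.17, adjusted p = 0.0608), but it passed as a fall under 5 alternatives, among them quantile normalization (-0.24, adjusted p = 0.016) and the replicate block (-0.17, adjusted p = 0.0456).

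GRN (ENSG00000030582.18, chromosome 17, 44345086 to 44353102, plus strand) encodes progranulin, a precursor that lysosomes cut into granulins. In OCI-LY19 it was at 18.0, 17.6 and 17.9 FPKM untreated and 131, 103 and 119 FPKM treated (2.64 ± 0.09, adjusted p = 2.19e-14). Its means there were 6.58-fold apart, and OCI-LY19 went from the lowest GRN of the untreated lines to the highest of the treated ones. In OCI-LY3 it was at 44.0, 54.0 and 55.5 FPKM untreated and 105, 90.9 and 111 FPKM treated (0.99 ± 0.09, adjusted p = 4e-08), in HT the change was 0.54 and in SUDHL5 0.58. The response of OCI-LY19 exceeded that of OCI-LY3 (OCI-LY3 minus OCI-LY19 was -1.66 ± 0.13, adjusted p = 6.78e-09), HT (HT minus OCI-LY19 was -2.10 ± 0.13, adjusted p = 3.44e-10) and SUDHL5 (2.06 ± 0.13, adjusted p = 6.33e-10). HT and SUDHL5 were not separated (adjusted p = 0.869).

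DNASE2 (ENSG00000105612.9, chromosome 19, 12875211 to 12881468, minus strand), the acid endonuclease that digests DNA in lysosomes, rose in the lines OCI-LY3 and HT and fell in OCI-LY19. OCI-LY3 had 1.93, 2.90 and 2.08 FPKM untreated and 5.90, 5.71 and 6.79 FPKM treated (1.12 ± 0.12, adjusted p = 1.4e-07) and HT had 8.99, 7.29 and 7.99 FPKM untreated and 11.0, 11.3 and 16.1 FPKM treated (0.59 ± 0.12, adjusted p = 0.000727). OCI-LY19 had 5.28, 5.96 and 5.23 FPKM untreated and 3.91, 3.67 and 3.81 FPKM treated (-0.43 ± 0.12, adjusted p = 0.00331). These groups did not overlap. SUDHL5 had 16.5, 16.7 and 16.9 FPKM untreated and 13.8, 12.8 and 13.5 FPKM treated (-0.30 ± 0.12, adjusted p = 0.0497). That call is at the edge of the threshold and was lost in each of the 6 fits without 1 library (adjusted p = 0.0742 to 0.133), and with median-of-ratios scaling, quantile normalization, the replicate block, a pseudocount of 0.1 or no filter. The response of OCI-LY3 differed from that of OCI-LY19 (1.55 ± 0.16, adjusted p = 2.73e-07), and OCI-LY19 and SUDHL5 were not separated (adjusted p = 0.539).

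**Figure D3:**
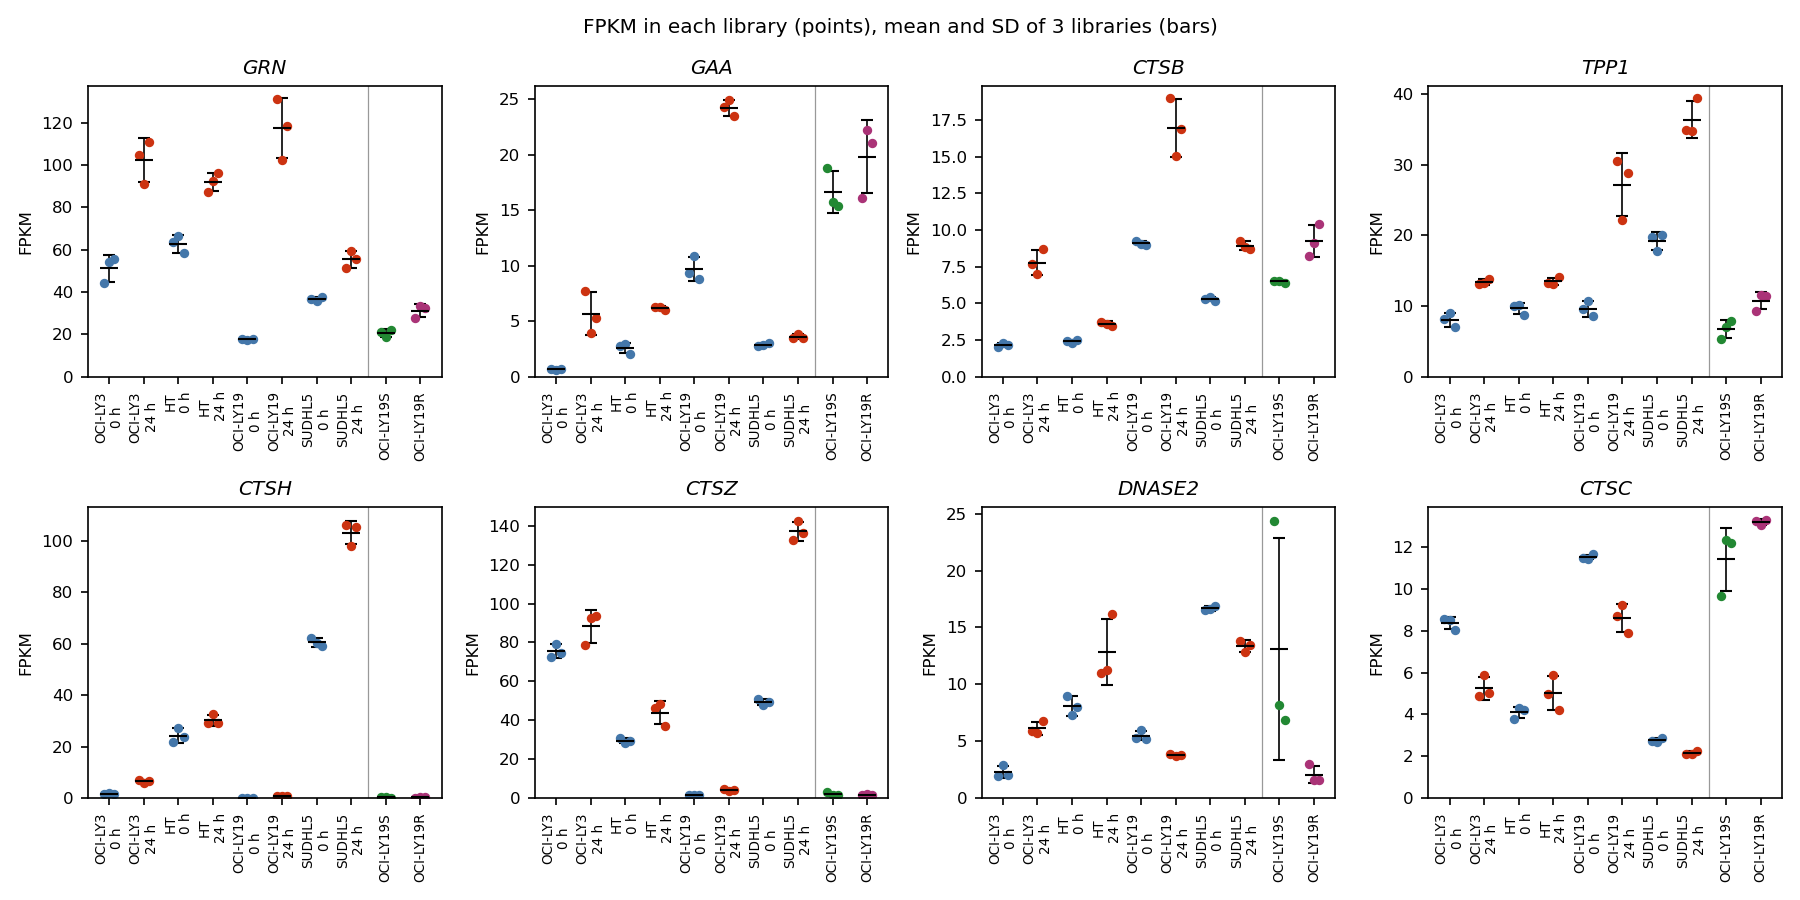
FPKM of GRN, GAA, CTSB, TPP1, CTSH, CTSZ, DNASE2 and CTSC (vertical axes, each starting at 0) in each library (points) of the 10 groups, with mean and SD of 3 libraries (bars). GRN in OCI-LY19 goes from about 18 to between 103 and 131 FPKM, DNASE2 falls from OCI-LY19S to OCI-LY19R, and CTSC falls in OCI-LY3 and OCI-LY19.

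Of the 3 V-ATPase subunits, 3 rose in OCI-LY3, 1 in HT, 3 in OCI-LY19 and 2 in SUDHL5, and none fell. Their median changes were 0.22 in OCI-LY3, 0.15 in HT, 0.71 in OCI-LY19 and 0.62 in SUDHL5. Among all genes tested, in the same order of lines, 40.4%, 22.9%, 34.5% and 18.6% rose and 14.3%, 9.41%, 23.7% and 19.9% fell. Under median-of-ratios scaling 1 of the 3 subunits rose in OCI-LY3, where 26.8% of all genes did. ATP6V1A, the catalytic subunit, rose in OCI-LY3 (0.62), HT (0.54), OCI-LY19 (0.99 ± 0.10, adjusted p = 5.91e-08) and SUDHL5 (0.62). ATP6V0D1, a subunit of the membrane sector, was at 9.62, 9.56 and 9.56 FPKM untreated and 20.8, 21.9 and 21.9 FPKM treated in SUDHL5 (1.09 ± 0.09, adjusted p = 6.22e-09), with no overlap. It also rose in OCI-LY19 (0.71). ATP6V1H, a regulatory subunit, rose in OCI-LY19 (0.61 ± 0.06, adjusted p = 1.82e-08). In OCI-LY3 the rises of ATP6V0D1 (0.22) and ATP6V1H (0.20) turned to -0.044 and -0.058 under median-of-ratios scaling.

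Summed markers of other cell types moved with treatment in each of the 4 lines. In OCI-LY19 the sum of the 10 myeloid markers went from between 6.03 and 9.84 to between 20.1 and 33.3 FPKM, carried by LYZ, CSF1R and ITGAM, with 7 of 10 below 1 FPKM and CD163 and MARCO at 0 after treatment. In SUDHL5 the same sum went from between 0.299 and 0.466 to between 5.38 and 6.32 FPKM, carried by LYZ and ITGAM, with MARCO and ELANE at 0. The sum of the 6 T and NK cell markers in SUDHL5 went from between 4.32 and 4.94 to between 16.5 and 18.8 FPKM. CD3E (mean 2.28 to 8.09 FPKM), CD3D (0.728 to 5.40) and CD3G (0.431 to 2.35) rose, while CD8A and GNLY were at 0 after treatment. In SUDHL5 the sum of the stromal markers, carried by DCN and PECAM1, went from between 8.69 and 8.86 to between 15.4 and 16.3 FPKM. The T and NK cell sum also went up in OCI-LY3, from between 0.905 and 1.65 to between 2.38 and 4.0 FPKM, and in HT, from between 0.364 and 0.629 to between 1.72 and 2.22. It went down in OCI-LY19, from between 6.83 and 7.45 to between 4.88 and 6.46. The stromal sum in OCI-LY3, carried by DCN, went down from between 3.80 and 5.67 to between 1.87 and 2.51 FPKM. The sum of the 6 B cell markers in OCI-LY3 went from between 1255 and 1507 to between 680.0 and 852.3 FPKM. It was also lower after treatment in HT (1038 to 1059 before, 815.7 to 869.8 after) and OCI-LY19 (383.5 to 434.8 before, 358.0 to 365.0 after), and higher in SUDHL5 (1011 to 1017 before, 1202 to 1237 after). Their part in the changes of the members was not tested. In OCI-LY3 and HT all 10 myeloid markers were below 1 FPKM before and after treatment.

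Untreated levels set the lines apart for 33 of 34 members by the F test, where 90.5% of all genes tested differed. The exception was MCOLN1 (adjusted p = 0.8). CTSH was at 60.5 ± 1.59 FPKM in SUDHL5, 24.3 ± 2.81 in HT, 1.73 ± 0.198 in OCI-LY3 and 0.215 ± 0.0466 in OCI-LY19 (mean ± SD, n = 3). Each step in that order passed (adjusted p = 1.28e-11, 7.85e-18 and 4.37e-11). CTSZ was at 75.4 ± 3.60 in OCI-LY3, 49.3 ± 1.49 in SUDHL5, 29.5 ± 1.23 in HT and 1.61 ± 0.166 in OCI-LY19, again with each step past the threshold (adjusted p = 4.58e-06, 4.08e-07 and 6.15e-18). OCI-LY19 had the lowest CTSH, CTSZ, TFEB, GRN and PSAP of the untreated lines. It had the most GAA (9.68 ± 1.08 FPKM), CTSC (11.5 ± 0.111) and CTSB (9.09 ± 0.130). Pair by pair, 29 members differed between OCI-LY3 and OCI-LY19 (background 62.8%), 28 between OCI-LY19 and SUDHL5 (71.0%), 28 between OCI-LY3 and SUDHL5 (66.0%), 26 between HT and OCI-LY19 (64.4%), 25 between HT and SUDHL5 (67.0%) and 24 between OCI-LY3 and HT (62.1%). The plot of untreated levels shows this spread for all 37 members.

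**Figure D4:**
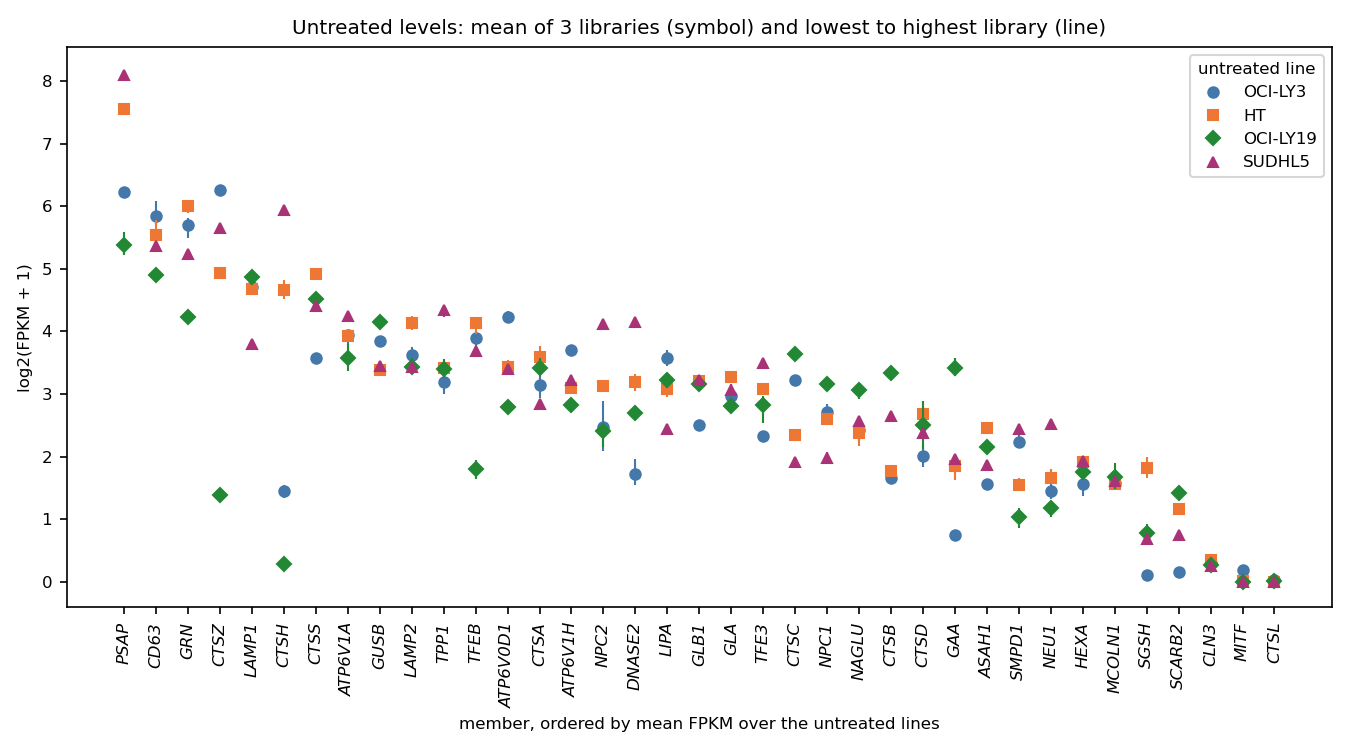
Untreated level of the 37 members in the 4 lines on a log2(FPKM + 1) axis, ordered along the horizontal axis by mean FPKM, with the mean of 3 libraries as a symbol and the lowest to highest library as a line. CTSH spans from 0.215 FPKM in OCI-LY19 to 60.5 in SUDHL5, and CTSZ in OCI-LY19 (1.61) lies below the 3 other lines.

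Responses also differed pair by pair. Of 34 members, 26 differed between HT and OCI-LY19 (background 45.2%), 25 between OCI-LY19 and SUDHL5 (43.9%), 23 between OCI-LY3 and SUDHL5 (49.4%), 22 between OCI-LY3 and OCI-LY19 (47.7%), 19 between HT and SUDHL5 (37%) and 16 between OCI-LY3 and HT (29.4%). In the first of these pairs, OCI-LY19 had the higher response for 22 of the 26. Against SUDHL5, OCI-LY19 was higher for 19 of the 25, and against OCI-LY3 for 16 of the 22.

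In the resistant derivative few members differed from the parental cells, and the largest difference was a lower DNASE2. Of 32 members, 5 were higher and 1 lower in OCI-LY19R, where 3.11% of all genes were higher and 2.34% lower, and the members' median was 0.21 against 0.05 for all genes. DNASE2 had 24.4, 8.19 and 6.83 FPKM in the parental libraries and 2.98, 1.63 and 1.64 in the resistant ones (-2.02 ± 0.44, adjusted p = 0.0474). The parental libraries were all above the resistant ones, but replicate 1 of OCI-LY19S stood far above the other two. In the authors' deposited table its log2 fold change was -2.7 with an adjusted p of 0.00050.

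The members higher in OCI-LY19R were PSAP, GRN, CTSB, NPC2 and LIPA. PSAP had 35.8, 42.2 and 38.2 FPKM in the parental libraries and 55.7, 65.9 and 62.8 in the resistant ones (0.65 ± 0.10, adjusted p = 0.0219). GRN was at 21.3, 18.6 and 21.9 and 27.6, 33.6 and 32.5 FPKM (0.57 ± 0.11, adjusted p = 0.0331). CTSB was at 6.54, 6.55 and 6.41 and 8.24, 9.12 and 10.4 FPKM (0.45 ± 0.10, adjusted p = 0.0484). In each of these the groups did not overlap. NPC2 was at 5.90, 5.80 and 5.41 and 7.64, 7.87 and 8.12 FPKM (0.41 ± 0.08, adjusted p = 0.0331), and LIPA differed by 0.39 (adjusted p = 0.0481). The LIPA call was lost under median-of-ratios scaling (adjusted p = 0.0805) and quantile normalization (0.0772), as was that of CTSB (0.0719 and 0.0636). In the authors' deposited table LIPA had 0.38 with an adjusted p of 0.0508. TPP1 did not pass (0.60, adjusted p = 0.0658), though the authors' deposited table gives it 0.58 with an adjusted p of 0.0219.

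These calls rest on few libraries. Without OCI-LY19S replicate 2 or 3, or OCI-LY19R replicate 2 or 3, no member passed, without OCI-LY19R replicate 1 only 2 higher ones did, and without a filter on low genes none did, while at an unadjusted p below 0.05 there were 11 higher (14.6% of all genes) and 1 lower (8.85%), and limma voom on recovered reads called 6 higher (4.22%) and 0 lower (2.82%). Median-of-ratios scaling gave 3 higher (background 2.33%) and 1 lower (2.87%), and quantile normalization 3 higher (2.36%) and 1 lower (2.67%). Counted by libraries, 12 members were above and 1 below without overlap, where 20.9% and 11.8% of all genes were. TFEB was at 4.95, 3.26 and 3.60 FPKM in the parent and 4.44, 5.86 and 5.99 in OCI-LY19R (0.39 ± 0.16, adjusted p = 0.204), and TFE3 at 5.66, 5.47 and 5.24 and 5.59, 7.0 and 6.90 (0.21 ± 0.10, adjusted p = 0.258), both with overlapping groups. The sum of the myeloid markers was 6.84 to 15.6 FPKM in the parent and 10.3 to 26.4 in the derivative, carried by LYZ, CSF1R and MPO, with CD163 and MARCO at 0 in both. Its part in these differences was not tested.

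The other lysosome genes, a list of 52 of which 50 were tested in the 4 lines, rose more often than they fell in each of the 4 lines. Their median changes were 0.30 in OCI-LY3, 0.06 in HT, 0.56 in OCI-LY19 and 0.23 in SUDHL5. In OCI-LY19 42 rose and 2 fell, in OCI-LY3 30 rose and 10 fell, in SUDHL5 24 rose and 4 fell, and in HT 18 rose and 2 fell. The shares of all genes tested that rose and fell were 34.5% and 23.7% in OCI-LY19, 40.4% and 14.3% in OCI-LY3, 18.6% and 19.9% in SUDHL5, and 22.9% and 9.41% in HT. Median-of-ratios scaling left 21 higher and 11 lower in OCI-LY3 (26.8% and 25.5% of all genes) and 11 and 3 in HT (16.4% and 13.0%). Quantile normalization left 20 and 12 in OCI-LY3 (24.6% and 23.8%) and 13 and 6 in HT (14.0% and 12.8%). FUCA1, the lysosomal fucosidase, went from 4.20 ± 0.507 to 44.1 ± 1.77 FPKM in OCI-LY19 (3.12 ± 0.08, adjusted p = 1.31e-16). ARSA, the sulfatidase, went from 2.19 ± 0.875 to 11.2 ± 0.451 FPKM in OCI-LY19 (1.97 ± 0.18, adjusted p = 2.27e-08). TCIRG1, a V-ATPase subunit, rose in OCI-LY3 (1.46 ± 0.22, adjusted p = 1.42e-05). The falls there were led by GM2A, the GM2 activator (-0.55), and MAN2B1, a mannosidase (-0.54), while MAN2B1 rose in SUDHL5 (1.10). LAPTM5, a lysosomal membrane protein of blood cells, went from 12.9 ± 0.408 to 67.8 ± 2.62 FPKM in SUDHL5 (2.31 ± 0.09, adjusted p = 5.54e-13). In HT FUCA1 rose (0.45) and LAMP3, a further LAMP family protein, fell (-0.61). In OCI-LY19R 5 of 42 were higher than in the parent, HGSNAT (0.60) and GNPTG (0.46) among them, where 3.11% of all genes were higher. Each of these 2 was lost in 4 of 6 fits that left out 1 library, and 3 genes of the list passed under median-of-ratios scaling, 2 under quantile normalization and 0 with the replicate block.

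Of 27 autophagy genes, 16 rose and 3 fell in OCI-LY19, 15 rose and 2 fell in OCI-LY3, 7 rose and 1 fell in HT, and 4 rose and 7 fell in SUDHL5, against the same shares of all genes. In OCI-LY3 10 rose and 6 fell under median-of-ratios scaling and 12 rose and 6 fell under quantile normalization, and the median change of the list there went from 0.35 to 0.08 and 0.12. In HT the counts were 6 and 4, and 6 and 3, under those scalings. OPTN, a receptor for damaged cargo, went from 3.10 ± 0.399 to 23.4 ± 5.70 FPKM in OCI-LY19 (2.55 ± 0.15, adjusted p = 3.68e-11) and also rose in HT (1.22). SQSTM1, the cargo receptor p62, went from 21.8 ± 1.86 to 109 ± 20.6 FPKM in OCI-LY19 (2.26 ± 0.11, adjusted p = 2.6e-12). In SUDHL5 the largest falls were those of ATG9A (-0.65) and ATG7 (-0.65), both needed to build autophagosomes. In OCI-LY19R limma called 0 of 26, with 4 higher and 2 lower at an unadjusted p below 0.05 and 1 higher by voom.

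Of 26 genes of the nutrient control of TFEB, 11 rose and 5 fell in OCI-LY19, 11 rose and 4 fell in OCI-LY3, 6 rose and 2 fell in HT, and 5 rose and 8 fell in SUDHL5. The shares of all genes tested that rose and fell were 34.5% and 23.7% in OCI-LY19 and 40.4% and 14.3% in OCI-LY3. They were 22.9% and 9.41% in HT and 18.6% and 19.9% in SUDHL5. In OCI-LY3, HT and SUDHL5 the list's share of rises was near that of all genes. Under median-of-ratios scaling 6 rose and 9 fell in OCI-LY3 (26.8% and 25.5% of all genes), and in HT 1 rose and 4 fell (16.4% and 13.0%). Under quantile normalization 7 rose and 6 fell in OCI-LY3 (24.6% and 23.8%), and in HT 2 rose and 4 fell (14.0% and 12.8%). In OCI-LY19 FLCN, the partner of the Rag GTPases, rose (1.24 ± 0.12, adjusted p = 2.82e-08), as did RRAGC (1.15), a Rag GTPase. MLST8, an mTOR complex subunit, fell in OCI-LY19 (-1.04 ± 0.11, adjusted p = 2.08e-07) and HT (-0.40). XPO1, which exports TFEB from the nucleus, fell in SUDHL5 (-0.63) and OCI-LY3 (-0.25). In OCI-LY19R, RRAGB (0.75) and RPTOR (0.38) were higher and RHEB (-0.52) lower, calls lost in 4, 5 and 5 of 6 fits that each left out 1 library. With the replicate block 0 of 25 passed.

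Members with and without CACGTG in the promoter window were set side by side as a description. Of all genes tested, 34.5% rose and 23.7% fell in OCI-LY19, and 40.4% and 14.3% in OCI-LY3. The shares were 22.9% and 9.41% in HT, 18.6% and 19.9% in SUDHL5, and 3.11% and 2.34% in OCI-LY19R against the parent. In OCI-LY19 all 8 tested members with it rose (median 0.72), and of 16 without it 12 rose and 3 fell (median 0.81). In OCI-LY3 6 of 8 with it rose (median 0.54), and of 16 without it 12 rose and 2 fell (median 0.66). In HT 3 of 8 with it rose and 1 fell (median 0.02), and 13 of 16 without it rose (median 0.43). In SUDHL5 3 of 8 with it rose (median 0.27), and 9 of 16 without it rose and 4 fell (median 0.41). In OCI-LY19R against the parent 0 of 8 with it passed (median 0.24), and of 15 without it 3 were higher and 1 lower (median 0.21). GRN, CTSH, CTSZ and TPP1 are among those without it.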

How the data were processed

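Per the labels' protocols, polyadenylated RNA of cultured lymphoma lines was made into strand-specific libraries (NEBNext Ultra II Directional). Per the submitters' processing notes, Trimmomatic, STAR and featureCounts were used with hg38; versions, gene annotation and strand setting were not stated there. The authors deposited FPKM per gene in separate tables for the 4 lines and for OCI-LY19S and OCI-LY19R, so tests stayed within a table. The authors' deposited table for the resistant cells also holds their comparison: a mean signal, a log2 fold change, a standard error and a statistic (a score each) and p-values, of which only the log2 fold change and adjusted p are quoted.

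From the FPKM values, reads were recovered with GENCODE 29 gene lengths: 100.0% of 375715 values above 0 came out whole within 0.01 read. They served for depth and for limma voom, an alternative added after the data were seen. limma 3.58.1 in R 4.3.3 (trend, two-sided, Benjamini-Hochberg over all genes tested) fitted log2(FPKM + 1) for genes at FPKM 1 or more in at least 3 libraries, jointly over the 8 line groups (16 residual degrees of freedom) and separately for OCI-LY19R against OCI-LY19S (4). The procedure was tested on simulated data. Alternatives were a pseudocount of 0.1, no filter, a filter at FPKM 5, median-of-ratios scaling, quantile normalization, a replicate block, each line alone, the last tag of the library name as covariate, and leaving out each library.

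The members and gene lists were chosen with earlier results of these data known. Values in each library are given for TFEB, TFE3, MITF and, per comparison, for up to 4 members that rose and 4 that fell most without overlap and at a mean of FPKM 5 or more in the higher group; other values by library were chosen after they were seen. From the pathway lists, up to 2 genes in each direction were named by the same rule, some of which are not reported here. CLN3 matched 2 gene IDs, and the one with more reads was used. The other (ENSG00000261832.6, chromosome 16, 28456371 to 28492098) overlaps it on the same strand and had at most 3 reads in any library. Same-numbered replicates were compared across groups. All 3 correlations of deviations exceeded 0.1 in HT (0.167 to 0.347), so the numbers were taken as pairs there. They were not taken as pairs in OCI-LY3 (-0.012 to 0.362), OCI-LY19 (0.036 to 0.355), SUDHL5 (-0.020 to -0.014) or OCI-LY19R against OCI-LY19S. The first tag of the library name is shared by same-numbered untreated and treated libraries in OCI-LY3 as in HT. In OCI-LY19 it is shared for replicates 1 and 3. What this tag stands for was not tested. Unless another setting is named, the HT counts, changes and p-values are those of the main fit, which does not use the pairs. The replicate block is the paired fit. Titles of the treated libraries hold the word ctrl, and they were grouped by their treatment label. Protein sequences were not compared here.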

Additional observations from a re-analysis of the deposited data

Results flagged for a closer look

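A difference between the lines in their response to doxorubicin was found by the moderated F test for 34 of the 34 members tested. For 7 of them the response had passed as a rise in at least 1 line and as a fall in at least 1 other, as it had for 19.1% of all genes tested. The members' share is near that of all genes. Under median-of-ratios scaling neither the CTSC rise in HT nor any of the GLB1 rises passed. The adjusted p of the difference was 0.000185 for CTSA, 3.03e-05 for CTSC, 2.43e-07 for DNASE2, 2.64e-06 for GLA, 7.16e-05 for GLB1, 1.26e-06 for NPC1 and 1.72e-06 for TFEB. DNASE2 had 1.12 in OCI-LY3, 0.59 in HT, -0.43 in OCI-LY19 and -0.30 in SUDHL5 (log2 changes). TFEB had -0.48, -0.27, 0.82 and 0.45 in the same order of lines. NPC1 and GLB1 fell only in SUDHL5 among the 4 lines, CTSA only in HT, and GLA only in OCI-LY19, while CTSC rose only in HT.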

How the results depend on the processing

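Under median-of-ratios scaling, ATP6V1H (-0.058), CTSZ (-0.053) and ATP6V0D1 (-0.044) changed sign in OCI-LY3, and 4 members were lower there. In HT, 4 members were lower with that scaling, 3 with quantile normalization and 0 with the line alone, and in SUDHL5 7 were lower with the line alone. The line alone added ASAH1, NPC2 and PSAP as falls in SUDHL5. It also added CD63 (adjusted p = 0.00047), GAA (0.00543) and GUSB (0.00763) as rises there. In OCI-LY19R the higher members numbered 0 with no filter, 3 under either median-of-ratios or quantile scaling, and the lower ones 0 with no filter and 0 with voom. For these changes the cause was not tested. Leaving out 1 library gave 18 to 21 higher and 1 to 3 lower in HT, 16 to 16 higher and 2 to 4 lower in SUDHL5, 21 to 24 higher in OCI-LY3, 28 to 29 higher in OCI-LY19, and 0 to 5 higher and 0 to 1 lower in OCI-LY19R. The response differed among lines for 32 to 34 members. The fits that moved the lower count in HT were those without untreated replicate 3 (2) or treated replicate 2 (3), and in SUDHL5 those without untreated replicate 3 or treated replicate 1 or 2 (2 each). In OCI-LY19R only the fit without OCI-LY19S replicate 1 gave 5 higher and 1 lower.

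With the replicate block, 2 members were lower in HT, where the numbers are taken as pairs, TFEB being the second (adjusted p = 0.0180), and 20 were higher. The block left 1 higher and 1 lower in OCI-LY19R, where same-numbered libraries did not deviate together (-0.115 to 0.118). It gave 25 higher in OCI-LY3, 29 in OCI-LY19 and 19 in SUDHL5.

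With 3 libraries a group the fit cannot settle small changes, and in OCI-LY19R against OCI-LY19S 4 residual degrees of freedom limit every call. Depth limits MITF, CTSL, CLN3 and, in OCI-LY19, CTSH.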
